A study of Mus musculus with 4 samples.

Results

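The scavenger receptor Cd36 and 8 other receptors for modified lipoproteins, lipids and debris (Msr1, Scarb1, Scarb2, Cd68, Olr1, Marco, Lrp1 and Colec12) were examined in primary mouse microglia. These 9 genes were selected by name from the 54532 genes counted in both replicates. All 9 passed the minimum of 10 counts and are among the 13811 protein-coding genes tested. Cd36 is in this group because the study names it among genes that differed in these same libraries, so its difference between treatments is not independent evidence.

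Scavenger receptors are surface and lysosomal proteins that bind oxidised lipoproteins, fatty acids, apoptotic material and aggregated proteins such as amyloid β, and carry them into the cell. Microglia, the resident macrophages of the brain, use several of them to clear debris. Cd36 also takes up long-chain fatty acids and signals with Toll-like receptors, and its gene is a well-known target of the lipid-sensing nuclear receptor PPARγ.

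RNA sequencing was carried out on 4 libraries of poly-A RNA. The groups were EGCG (1 µM epigallocatechin gallate, a green tea flavan-3-ol, for 24 h; n = 2) and Vehicle (DMSO for 24 h; n = 2), in replicates 1 and 2, which the labels call biological replicates. All cultures came from cortex of neonatal male CD1 mice, with no genetic change. Microglia had been expanded with GM-CSF on an astrocyte layer that was then removed with trypsin, and were treated in serum-free medium with IL-34, TGFβ2, GM-CSF and cholesterol, so every group reflects cells cultured with these factors. P-values describe these 4 libraries only, and the models used borrow part of each gene's spread from the other genes.

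Total counts ranged from 33805071 to 54970300 per library, and the EGCG library held 1.51 times the counts of its Vehicle partner in replicate 2 and 1.01 times in replicate 1. Summed levels of 11 tested microglia markers lay between 5426 and 6998 CPM (counts relative to a TMM-adjusted library size), although Siglech had only 0 to 3 counts. The 9 stromal markers summed to 689 CPM with Vehicle and 260 with EGCG in replicate 1, and to 335 and 349 in replicate 2. Within that list, Col1a1 had 3962, 4, 1344 and 2040 counts in the same order. The summed level of 8 astrocyte markers was between 14.3 and 22.7 CPM. The 6 oligodendrocyte markers summed to between 78.2 and 82.0 CPM. The 5 border macrophage markers, genes of macrophages at the brain's surfaces, summed to between 622 and 819 CPM. Almost all of this sum was Pf4, which was lower in replicate 2, and Ms4a7, which was higher there. Lyve1, F13a1 and Cbr2 did not exceed 1.37 CPM in any library. Endothelial markers (5 tested) summed to between 95.8 and 282 CPM, with Cldn5 at 0 counts in every library and Pecam1 at 2, 3, 580 and 741. In bulk RNA, fewer cells of a type and less RNA per cell cannot be told apart.

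Levels of the receptors were compared with each other as RPKM, the CPM divided by the gene's length in kilobases. Cd68, a lysosomal glycoprotein of macrophages, was the most abundant, with a median of 618 RPKM over the 4 libraries (563 to 682), at percentile 99.7 of the genes tested. The collectin-type receptor Colec12 followed at 263 RPKM (167 to 359), then the class A receptors Msr1 at 174 RPKM (160.5 to 181) and Marco at 128 RPKM (92.1 to 202). Cd36 came next at 82.0 RPKM (45.7 to 125), at percentile 96.2. The large endocytic receptor Lrp1 had 54.8 RPKM (45.1 to 61.3). Scarb2, a lysosomal membrane protein that delivers glucocerebrosidase, had 43.3 RPKM (33.6 to 52.2). Scarb1, the HDL receptor, had 6.07 RPKM (4.15 to 7.82), and the oxidised-LDL receptor Olr1 had 3.89 RPKM (1.52 to 7.59), at percentile 45.7. The ranges of neighbours in this order overlapped, except for Cd68 above Colec12 and Scarb2 above Scarb1.

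**Figure D1:**
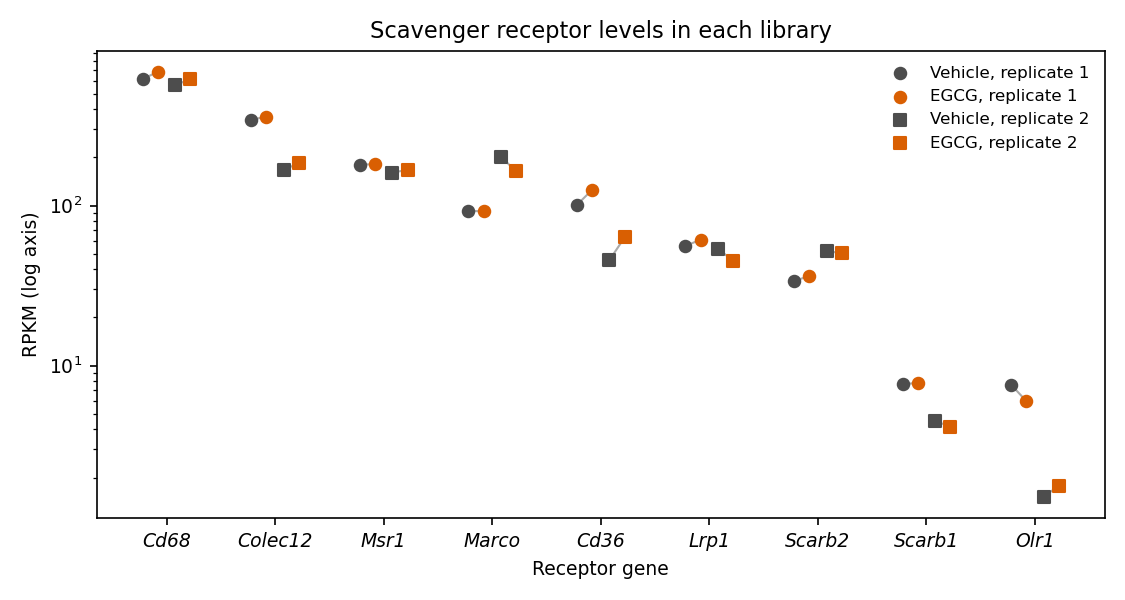
RPKM (log axis) of the 9 receptors in each of the 4 libraries, ordered by their median. Points are single libraries, circles replicate 1 and squares replicate 2, and a line joins Vehicle (grey) to EGCG (orange) of 1 replicate. For Cd36, Colec12, Marco, Scarb1, Scarb2 and Olr1, and by a smaller margin for Msr1, the replicates stand further apart than the treatments.

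The main question was whether EGCG altered expression of these receptors. Cd36 stood at 361.8 CPM with Vehicle and 449.8 with EGCG in replicate 1, and at 164.1 and 226.7 in replicate 2. EGCG was the higher library within each replicate, but both replicate 2 libraries were below both replicate 1 libraries, so the treatment groups overlapped. With treatment as the only term, edgeR's quasi-likelihood test gave Cd36 a log2 fold change of 0.36 (SE 0.55, 95% interval -1.17 to 1.90, Benjamini-Hochberg adjusted p = 1.00). This difference did not exceed the spread between replicates. In this fit 0 of the 9 receptors had an unadjusted p under 0.05, against 0.116% of all genes tested (16 genes). In this fit the value was -0.22 without EGCG replicate 1 and -0.12 without Vehicle replicate 2, where 2 libraries are set against 1 and the replicates are no longer balanced between the groups.

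With the replicate number as a block, which compares EGCG with Vehicle inside each replicate, Cd36 was 1.31-fold higher in EGCG (log2 fold change 0.39, SE 0.06, 95% interval 0.24 to 0.54). With 4 libraries this fit leaves little spread to measure per gene, so its SE and interval rest much on the spread of other genes. On the log2 scale EGCG exceeded Vehicle by 0.31 in replicate 1 and by 0.47 in replicate 2. Cd36 passed an unadjusted p under 0.05 in this fit, with an adjusted p = 0.995 in edgeR. DESeq2 with the same block gave a log2 fold change of 0.38 (SE 0.08, adjusted p = 0.00414). Other edgeR settings with the block, chosen after seeing the data, gave Cd36 an adjusted p = 0.299, an adjusted p = 0.952 and an adjusted p = 0.970. DESeq2 with treatment as the only term gave Cd36 a log2 fold change of 0.35 (SE 0.57, unadjusted p = 0.533). Whether Cd36 passed an adjusted p under 0.1 therefore depended on both the block and the package. Cd36 was the 1 receptor called higher with the edgeR block, where 2.12% of all genes were called higher, and 0 were called lower, against 1.09%. Scaling by total counts in place of TMM turned that genome-wide split from 293 higher and 151 lower to 179 higher and 322 lower, and Cd36 stayed higher (log2 fold change 0.36, adjusted p = 0.970). The median log2 difference of the 9 stromal markers was -5.42 in replicate 1, where Postn and Pdgfra did not fall. In replicate 2 it was 0.00, over markers that went both ways (Acta2 1.23, Dcn -0.33). Their part in the Cd36 difference was not tested.

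Cd36 (ENSMUSG00000002944) spans chromosome 5 from 17781690 to 17888801 on the minus strand of GRCm38, with 6 coding transcripts that start at 6 different sites in GENCODE release 21. The RefSeq promoter entry (build GRCm38.p6, 250 bases before to 50 after a start site, chr5:17835847-17836146, minus strand) therefore covers 1 of several starts and lies inside the gene's span. It is shown because Cd36 differed within both replicates, and the capitals mark matches to the letters of a nuclear receptor half-site (AGGTCA, here on the opposite strand) and of a CCAAT box.
Cd36: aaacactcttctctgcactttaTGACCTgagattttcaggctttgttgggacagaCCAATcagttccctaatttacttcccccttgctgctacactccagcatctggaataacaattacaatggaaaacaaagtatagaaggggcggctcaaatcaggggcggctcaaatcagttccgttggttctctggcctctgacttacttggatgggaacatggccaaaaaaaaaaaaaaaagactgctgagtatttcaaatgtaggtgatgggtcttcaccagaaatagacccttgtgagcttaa
The half-site letters are found on either strand in 16.3% of the 32851 RefSeq promoter windows of this length, and CCAAT in 37.4%, so a match is only a description. This window did not hold the core letters of a PU.1 site (GAGGAA), those of an AP-1 site (TGANTCA), or those of a TATA box (TATAAA), each searched on both strands.

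The class A receptors showed smaller differences. Msr1, which binds acetylated LDL and amyloid β, stood at 1143 CPM with Vehicle and 1149 with EGCG in replicate 1, and at 1018 and 1060 in replicate 2. The groups overlapped, and the blocked log2 fold change was 0.03 (95% interval -0.13 to 0.19, adjusted p = 0.996 in edgeR), turning to just below 0 when libraries were scaled by total counts. Marco, which binds bacteria and particles, stood at 178 CPM with Vehicle and 177 with EGCG in replicate 1, and at 389 and 314.5 in replicate 2. Almost all of its difference came from replicate 2, with log2 differences of -0.01 and -0.31. The blocked fold change was -0.16 on the log2 scale (95% interval -0.36 to 0.05, adjusted p = 0.995 in edgeR). It passed an unadjusted p under 0.05 with the block and total-count scaling (adjusted p = 0.970) and with the block and a minimum of 10 counts in every library (adjusted p = 0.935).
Colec12 stood at 1139 CPM with Vehicle and 1194 with EGCG in replicate 1, and at 555 and 611 in replicate 2. EGCG was slightly higher in each replicate (log2 differences 0.07 and 0.14), and the blocked log2 fold change of 0.10 did not pass the test (95% interval -0.05 to 0.26, adjusted p = 0.995 in edgeR).

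Cd68, Scarb2 and Scarb1 had smaller differences than Cd36. Cd68 stood at 776.6 CPM with Vehicle and 857.8 with EGCG in replicate 1, and at 708 and 776.4 in replicate 2. EGCG exceeded Vehicle by 0.14 and by 0.13 on the log2 scale, although EGCG replicate 2 lay just under Vehicle replicate 1. The blocked fold change was 1.10 (95% interval 0.99 to 1.22, adjusted p = 0.995 in edgeR). DESeq2 with the block put Cd68 just past the unadjusted threshold (log2 fold change 0.13, adjusted p = 1.00), so with Cd36 2 of 9 receptors were called there, against 1.11% of all genes. Scarb2 stood at 211 CPM with Vehicle and 229 with EGCG in replicate 1, and at 328 and 315 in replicate 2. The sign differed between replicates, and the blocked log2 fold change was 0.03 (95% interval -0.12 to 0.18), or just below 0 with total counts. Scarb1 stood at 64.8 CPM with Vehicle and 66.5 with EGCG in replicate 1, and at 38.4 and 35.3 in replicate 2. Its blocked log2 fold change was -0.04 (95% interval -0.21 to 0.13).

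Lrp1, which clears apolipoprotein E and protease complexes, stood at 990 CPM with Vehicle and 1085 with EGCG in replicate 1, and at 952 and 799 in replicate 2. The libraries moved in opposite directions, by 0.13 in replicate 1 and -0.25 in replicate 2 on the log2 scale, and the blocked log2 fold change was -0.06 (95% interval -0.33 to 0.20). Olr1 stood at 27.1 CPM with Vehicle and 21.4 with EGCG in replicate 1, and at 5.43 and 6.34 in replicate 2. It also moved in opposite directions (-0.34 and 0.22), and its blocked interval was the widest of the 9 receptors, from -0.46 to 0.31 around -0.08. Olr1 was the least abundant receptor by counts, with 199 to 889 counts per library.

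Across the group, 4 of 9 receptors (Cd36, Cd68, Msr1 and Colec12) had higher CPM with EGCG in both replicates, against 29.9% of all genes tested. Marco alone was lower in both, against 20.6%. For 0 receptors did the treatment groups not overlap, against 11.9% of all genes. The median blocked log2 fold change of the 9 receptors was 0.03, and that of all genes was 0.01. The smallest two-sided p from permuting 2 against 2 libraries is 0.333, so every p given here comes from a model.

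**Figure D2:**
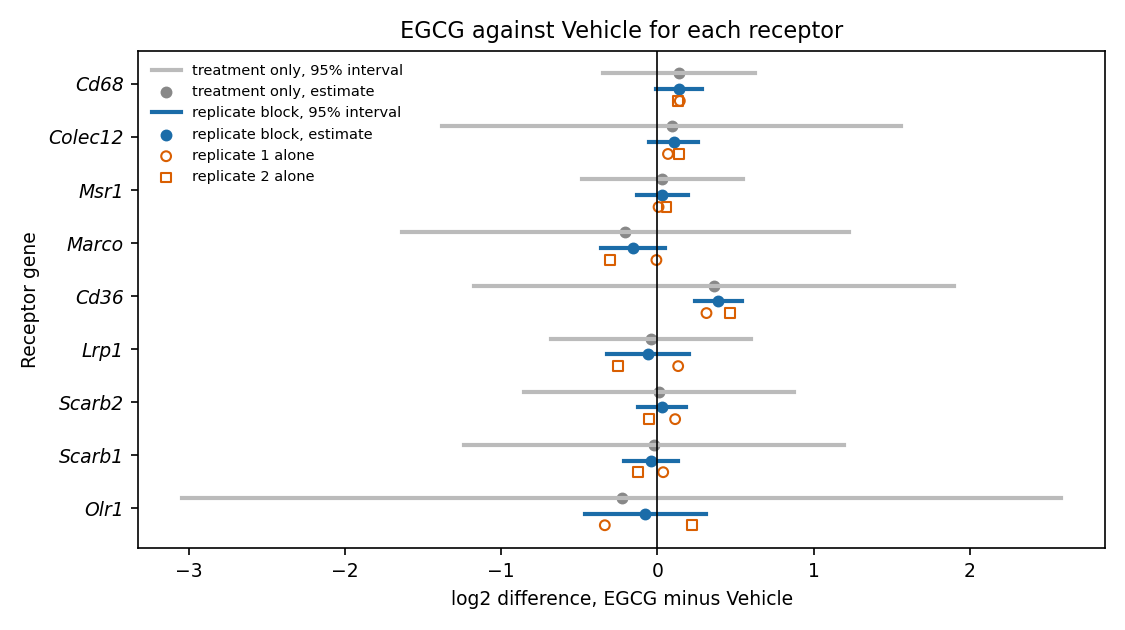
Log2 difference, EGCG minus Vehicle, for each receptor. Grey points and bars are estimates and 95% intervals with treatment as the only term, blue ones those with the replicate block, and open orange symbols are the difference within each replicate. Cd36 is the receptor whose blocked interval (0.24 to 0.54) does not reach 0.

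For most receptors the replicates differed more than the treatments. Cd68 was an exception, with log2 differences of -0.13 and -0.14 between replicates and 0.14 and 0.13 between treatments. Lrp1 was mixed, with -0.06 between Vehicle libraries and -0.44 between EGCG libraries, beside treatment differences of 0.13 and -0.25. The replicate term was tested in the same blocked edgeR fit, and the 2 replicates are also separately counted tables, so culture and batch cannot be told apart. Of the 9 receptors, 6 differed at an adjusted p under 0.1 (Benjamini-Hochberg), against 53.5% of all genes tested, so the receptors differed about as often as genes in general. Olr1 was 0.24-fold in replicate 2 relative to replicate 1 (log2 difference -2.03, 95% interval -2.43 to -1.64, adjusted p = 0.000594). Cd36 was 0.48-fold (log2 difference -1.06, 95% interval -1.21 to -0.91, adjusted p = 0.00025). Colec12 was 0.50-fold (95% interval 0.45 to 0.56, adjusted p = 0.000331) and Scarb1 0.56-fold (-0.84, adjusted p = 0.000725). The other two went the opposite way, Marco at 1.97-fold (log2 difference 0.98, adjusted p = 0.000769) and Scarb2 at 1.46-fold (0.55, adjusted p = 0.00178). In every one of these 6, both replicate 2 libraries lay on the same side of both replicate 1 libraries. The same held for Msr1, Cd68 and Lrp1, so it does not set the 6 apart, and its share over all genes was not counted. Msr1 (-0.14, adjusted p = 0.131), Cd68 (-0.14, adjusted p = 0.110) and Lrp1 (-0.25, adjusted p = 0.111) did not pass, and each of them did pass under some alternatives. Within the microglia markers, 6 genes were higher and 4 lower in replicate 2, and Pecam1 went from 2 and 3 counts to 580 and 741. Their part in the receptor differences was not tested.

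**Figure D3:**
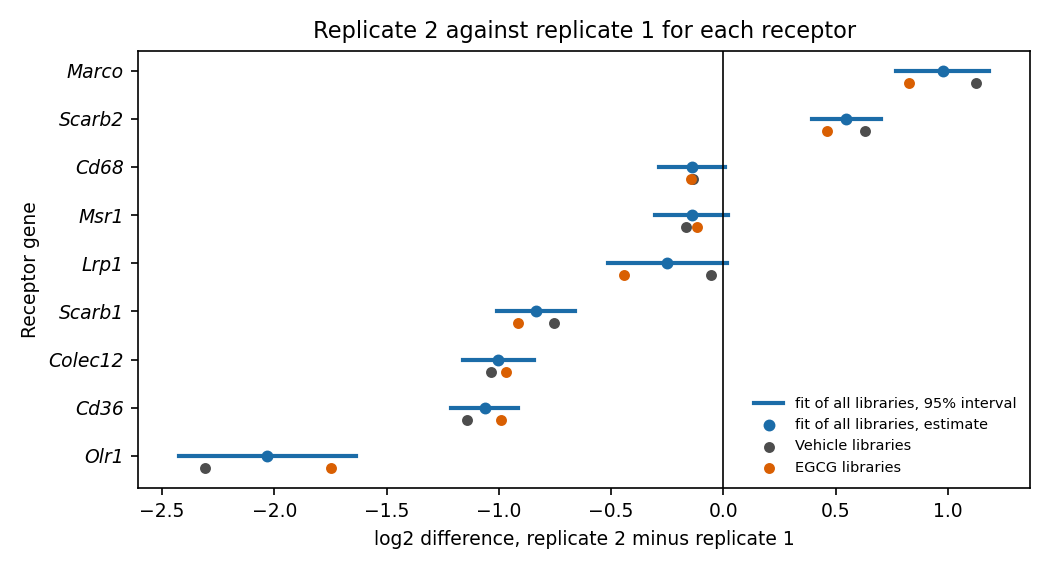
Log2 difference, replicate 2 minus replicate 1, for each receptor. Blue points and bars are the estimate and 95% interval over all 4 libraries, and grey and orange points are the difference between Vehicle libraries and between EGCG libraries. Olr1, Cd36, Colec12 and Scarb1 lie below 0, Marco and Scarb2 above it, in both treatments.

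Promoter entries were found for 6 of the 9 receptors, and none for Msr1, Scarb1 or Colec12. Those of Olr1, Marco and Scarb2 are shown because these receptors differed between the replicates, Olr1 in the same direction as Cd36 and the others in the opposite one (GRCm38.p6, minus strand, chr6:129507116-129507415 for Olr1, chr1:120504975-120505274 for Marco and chr5:92505608-92505907 for Scarb2). Capitals mark matches to the PU.1, AP-1, half-site or CCAAT letters on either strand.
Olr1: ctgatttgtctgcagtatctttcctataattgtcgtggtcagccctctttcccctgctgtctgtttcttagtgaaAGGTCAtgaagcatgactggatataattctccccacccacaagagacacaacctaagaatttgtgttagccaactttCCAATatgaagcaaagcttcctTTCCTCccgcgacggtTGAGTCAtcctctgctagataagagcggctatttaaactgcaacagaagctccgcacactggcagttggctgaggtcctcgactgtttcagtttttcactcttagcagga
Marco: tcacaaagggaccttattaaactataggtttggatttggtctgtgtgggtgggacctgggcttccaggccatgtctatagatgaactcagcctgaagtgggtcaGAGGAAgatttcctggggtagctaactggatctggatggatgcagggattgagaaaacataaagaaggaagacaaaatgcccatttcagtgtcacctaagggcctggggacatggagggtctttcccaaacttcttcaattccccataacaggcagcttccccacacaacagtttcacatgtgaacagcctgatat
Scarb2: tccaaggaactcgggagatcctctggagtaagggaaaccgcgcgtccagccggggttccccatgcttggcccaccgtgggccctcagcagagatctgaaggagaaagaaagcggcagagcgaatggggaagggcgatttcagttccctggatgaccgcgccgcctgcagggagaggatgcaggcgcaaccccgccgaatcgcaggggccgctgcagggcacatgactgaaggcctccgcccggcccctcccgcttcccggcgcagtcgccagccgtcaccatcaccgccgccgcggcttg
The Olr1 window held all of these, with the PU.1 letters at -76 from the start site (opposite strand), the AP-1 letters at -60, CCAAT at -98 and the half-site at -175. The AP-1 letters are found in 7.81% of all promoter windows. Marco held 1 match, to the PU.1 letters at -146, which 28.3% of windows hold, and 0 CpG. Scarb2 held none of the motifs, with 28 CpG and 67.3% GC. The Cd68 window (chr11:69666121-69666420) held 2 matches to the PU.1 letters, 2 to the AP-1 letters and 3 to CCAAT, 1 of them directly before a PU.1 match. The Lrp1 window (chr10:127621099-127621398) held none and had 16 CpG. The windows of Cd36 (3 CpG), Cd68 (4), Olr1 (7) and Marco had between 43.0% and 47.7% GC, against a median of 52.7% GC and 7 CpG over all windows. The TATA box letters are found in 13.6% of windows and in none of these 6.

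The other genes of the pathway were read from 7 lists. With treatment as the only term, 0 genes of any list were called. With the block, the shares called among all genes, 2.12% higher and 1.09% lower, stand beside each count that follows, and no list was tested as a whole. Of 12 other scavenger receptors tested, 0 were called. Stab1 and Mrc1, both abundant macrophage receptors, had blocked log2 fold changes of 0.03 and 0.04. Clec7a, the β-glucan receptor, was not tested because the files class it as a polymorphic pseudogene, and it had 72586 counts with Vehicle and 66460 with EGCG in replicate 1, and 30883 and 58757 in replicate 2. Of 13 other lipoprotein receptors and their chaperone, 0 were called. Stab1 and Mrc1 were picked after their values were seen.

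Among 14 co-receptors and signalling partners of Cd36, 1 was called higher (2.12% of all genes) and 0 lower (1.09%). This was the tetraspanin Cd9, which associates with Cd36 at the membrane (log2 fold change 0.19, 95% interval 0.02 to 0.36). The Toll-like receptors Tlr2, Tlr4 and Tlr6 and the kinases Lyn, Fyn and Syk did not pass, and are named for their roles. Of 12 ligands, 2 were called higher (2.12% of all genes), Plau, the urokinase cleared through Lrp1 (0.31, 95% interval 0.15 to 0.48), and Anxa1, annexin A1 (0.24, 0.06 to 0.42), and 0 lower (1.09%). Plau is also named by the study on these libraries. Thrombospondin 2 (Thbs2), a Cd36 ligand picked after its values were seen, was low in the same library as the stromal markers. It had 419 counts with Vehicle and 0 with EGCG in replicate 1, and 121 and 187 in replicate 2.

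In the longest list, fatty acid uptake, binding and storage, 4 of 18 genes were called higher (2.12% of all genes) and 1 lower (1.09%), and its median blocked log2 fold change was 0.04. Mgll, which hydrolyses monoacylglycerols, was 1.33-fold higher (log2 fold change 0.41, adjusted p = 0.659 in edgeR), at 131 CPM with Vehicle and 173.8 with EGCG in replicate 1, and 82.5 and 109 in replicate 2. Acsl1, which activates long-chain fatty acids, was 1.23-fold higher (0.30), at 126 and 157 CPM in replicate 1 and 71.9 and 87.5 in replicate 2. The fatty acid binding proteins Fabp4 (0.36, 95% interval 0.09 to 0.63) and Fabp3 (0.20, 0.04 to 0.37) were also called higher. Mgll, like Plau, is named by the study on these libraries. Cpt1a, which admits fatty acids to mitochondria, was the single gene lower (-0.17) and was picked after its value was seen. Between the replicates, 6 of the 18 genes were higher and 10 lower in replicate 2 at an adjusted p under 0.1 in edgeR. Of all 13811 genes tested, 3829 were higher and 3553 lower in that comparison, 53.5% together. Mgll, Acsl1, Fabp4 and Fabp3 were all among the lower genes of the list.

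Of 12 genes of cholesterol export and lysosomal cholesterol handling, 1 was called higher (2.12% of all genes) and 0 lower (1.09%). The gene was Lipa, the lysosomal acid lipase (0.19, 95% interval 0.02 to 0.36). Of 13 regulators of Cd36 transcription tested, 2 were called higher (2.12% of all genes) and 1 lower (1.09%). Nfe2l2, which encodes NRF2, was 0.26 higher on the log2 scale (95% interval 0.12 to 0.40). Pparg was 0.40 higher (95% interval 0.03 to 0.78), at only 188 counts with Vehicle and 267 with EGCG in replicate 1, and 147 and 266 in replicate 2. Rxrb, a partner of PPARγ, was lower (-0.16). No gene of these 7 lists passed an adjusted p under 0.1 in the blocked edgeR fit, where 1 of all 13811 genes did. In the blocked DESeq2 fit Plau (adjusted p = 0.0207) and Mgll (adjusted p = 0.0251) did, as 7 of all genes did. The calls of Pparg, Rxrb, Fabp3 and Cpt1a at an unadjusted p under 0.05 were lost in that DESeq2 fit. Lpl, from the ligand list, gained such a call there (log2 fold change 0.16) and did not pass an adjusted p under 0.1.

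**Figure D4:**
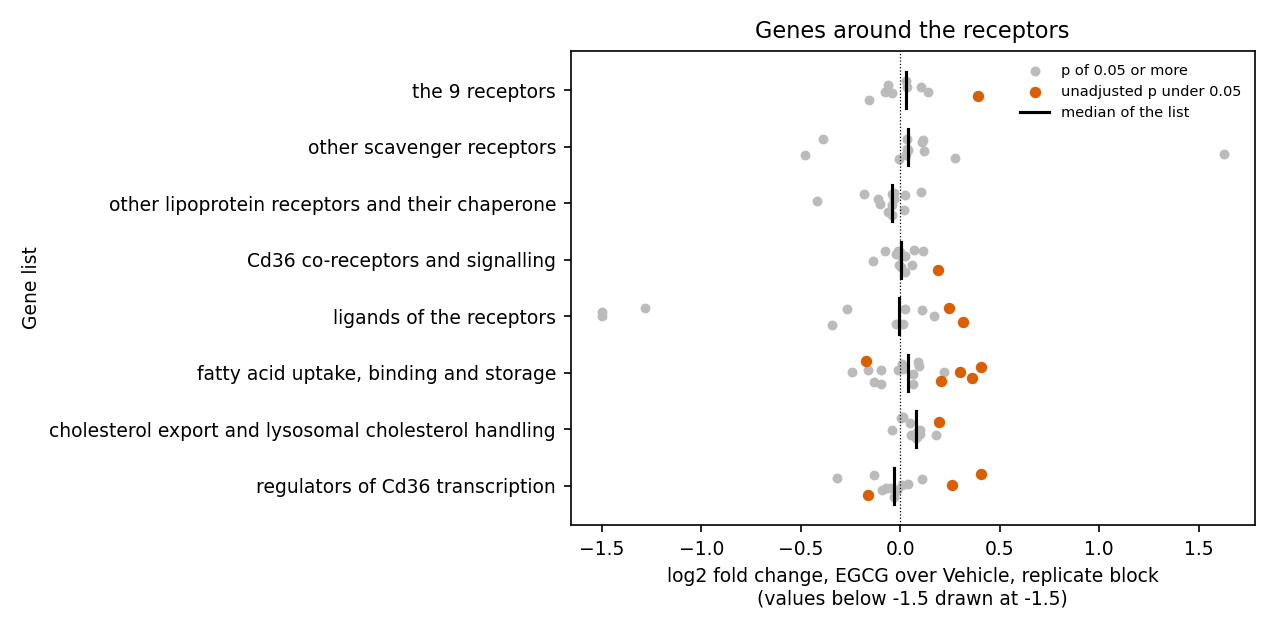
Blocked log2 fold change, EGCG over Vehicle, of every tested gene of the 9 receptors and of the 7 lists around them, with values below -1.5 drawn at -1.5. Points are genes, orange where the unadjusted p is under 0.05, and black bars are list medians, which lie between -0.04 and 0.08.

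The 5 genes whose log2 CPM pattern over the 4 libraries lay nearest to that of Cd36, among them Tmem171, Ptger3, Sparcl1 and Diaph3, were at Euclidean distances of 0.053 to 0.082 between centred profiles. All were low, none above 6.43 CPM in any library, where Cd36 did not fall below 164.1. Among the receptors Colec12 was nearest to Cd36 (distance 0.296), then Scarb1 (0.514), and Marco was farthest (2.13). All 5 were lower in replicate 2 than in replicate 1 in both treatments, and 4 libraries from 2 replicates leave few ways for patterns to differ.

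Positions of the other receptors in GRCm38 were chromosome 8, 39581685 to 39642673 for Msr1, chromosome 5, 125277087 to 125341094 for Scarb1, chromosome 5, 92441314 to 92506833 for Scarb2 and chromosome 11, 69664213 to 69666153 for Cd68. Olr1 lies on chromosome 6 from 129485244 to 129507165, Marco on chromosome 1 from 120474538 to 120505024, Lrp1 on chromosome 10 from 127538161 to 127621148, and Colec12 on chromosome 18 from 9707648 to 9877995. The position of Colec12 differs in GENCODE release 21. No other annotated gene overlapped an exon of a receptor. Near-identical stretches in other genes (at least 90% identity over 200 bases) were found for Colec12 alone, where they matched 186 genes over at most 417 bases, so part of its count could be shared with them.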

How the data were processed

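The deposited values are whole, unnormalized counts of reads per gene, 1 table for each replicate number with its Vehicle and EGCG libraries as columns. Per the submitters' processing notes, reads were aligned with HISAT2 to GRCm38.p6, the methods describe the quantification as stranded, and the counting program and annotation are not given in the sources used here. Tables were joined on the Ensembl identifier, and 697 and 329 assembled loci that exist in 1 table only were left out. GENCODE mouse release 21 held 54409 of the identifiers, 98.3% at an unchanged position. Protein-coding genes took 97.97% to 98.07% of counts. The main test was the two-sided quasi-likelihood F test of edgeR 4.0.16 in R 4.3.3 (TMM scaling, treatment only), run on protein-coding genes whose counts over the 4 libraries came to 10 or more. Calls were made at an unadjusted p under 0.05 and at a Benjamini-Hochberg adjusted p under 0.1 over all genes. CPM used TMM library sizes, log2 values a prior count of 2, and intervals are 95%. DESeq2 1.42.0, other normalizations and filters, and leaving out each library were alternatives. Near copies were sought with blastn 2.17.0.

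Libraries of 1 number were counted in 1 table, and their raw files share a name pattern in the study's metadata. For this reason the fits with the block treated them as paired, while the main test did not. The replicate differences of Vehicle and of EGCG correlated across genes (r = 0.64, genes not being independent replicates). Across the same genes the EGCG differences of replicate 1 and of replicate 2 did not correlate (r = -0.05). This r counts every gene alike, including those with low counts and Col1a1 (-9.42 in replicate 1 and 0.01 in replicate 2). It therefore does not show whether the treatment difference of a given gene was repeated. A smallest countable signal of 3 counts corresponds to 0.0546 to 0.0889 CPM, for counting error only. The 4 pairs of libraries that share a treatment or a replicate number were compared, and none was a copy (chi-square per gene of at least 9.2). Receptors and lists were chosen with earlier results of these data known. Named genes were the 9 receptors, up to 4 genes per list with the smallest blocked p under 0.05, and the 5 genes nearest to Cd36, of which 1 is not reported here. The fits were tested on simulated data with planted changes larger than the Cd36 difference. That test does not cover changes as small as that of Cd36.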

Additional observations from a re-analysis of the deposited data

How the results depend on the processing

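With treatment as the only term, 16 genes had an unadjusted p under 0.05 and 0 an adjusted p under 0.1, with 0 receptors called. The replicate block gave 444 genes, 1 at an adjusted p under 0.1 and 1 receptor in edgeR, and 153 genes, 7 and 2 receptors in DESeq2, and it changed the call of Cd36 in both (log2 differences 0.39 and 0.38) and of Cd68 in DESeq2, and of no other receptor. DESeq2 with treatment only gave 1 gene at an adjusted p under 0.1. The likelihood ratio test gave 78 genes, the newer dispersion method 38, a minimum of 10 counts in every library 3, filterByExpr 6 and all gene classes 35. Leaving out 1 library gave 8 to 131 genes, 0 of them receptors. Some alternatives that keep the block were chosen after seeing the data. There the newer dispersion method gave 523 genes, 2 at an adjusted p under 0.1 and 1 receptor, total counts gave 501, 1 and 2, and 10 counts in every library gave 605, 3 and 2.

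The sign turned for Scarb2 with upper-quartile factors (-7.914e-05), for Msr1 and Scarb2 with total counts (-0.001552 and -0.01687) and with total counts and the block (-0.0004355 and -0.004896). Without 1 library, the lone library of a group being assumed to vary like the others, the log2 difference ranged from -0.22 to 1.04 for Cd36, -0.067 to 0.12 for Msr1, -0.55 to 0.41 for Scarb1, -0.27 to 0.35 for Scarb2, -1.36 to 1.35 for Olr1, -0.71 to 0.45 for Marco, -0.28 to 0.13 for Lrp1 and -0.47 to 0.70 for Colec12. Cd68 kept its sign (0.06 to 0.21). These fits set 2 libraries against 1, of which 1 has no partner of its replicate. In the comparison of replicates 0 of 90 receptor values turned sign, and Msr1, Cd68 and Lrp1 passed an adjusted p under 0.1 in 12 of them. The cause of these changes was not tested.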
